A study of Drosophila melanogaster with 6 samples.

Results

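Chromatin recovered by preimmune serum was compared with input chromatin in ovaries of the su(Hw)f mutant of Drosophila melanogaster. The comparison uses 2 of the 6 samples of the series, chosen by their titles, with 1 library on each side. Ovaries came from newly eclosed virgin females under 6 h old, and chromatin was fixed in 1.8% formaldehyde. The mutant strain is labelled su(Hw)fv, and the labels do not spell out the alleles behind that name. The preimmune and input libraries of the wild-type strain Canton S, made in the same way, stand beside them as separate libraries. Every sample, controls included, carries an anti-Su(Hw) antibody entry in the labels. The titles and descriptions name preimmune serum and input chromatin, and the tracks themselves are named igG and WCE.

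Su(Hw) is a zinc finger protein that binds DNA and is best known for the insulator of the gypsy retrotransposon. Preimmune serum is drawn from an animal before it is immunised against the protein, so it holds no antibody raised to it. What it precipitates is the background of the immunoprecipitation. Input is sheared, fixed chromatin taken before precipitation. Its read depth follows DNA copy number and how readily each stretch is sheared, recovered, amplified and mapped. Chromosome 4 of Drosophila is small and largely packaged as heterochromatin although it carries active genes, and heterochromatin also flanks the centromeres and caps the telomeres.

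The su(Hw)f preimmune library held 20130453 reads and the input library 20596448, of which 98.1% and 98.5% fell on the 6 long chromosome sequences, called arms here, namely 4, X and the left and right arms of chromosomes 2 and 3. The wild-type preimmune and input libraries held 12173312 and 13993582 reads. In su(Hw)f input the X chromosome held 1.01 times the reads per kb of the large autosomal arms. The Y scaffold YHet held 33 reads in input and 31 in preimmune. The X level and the near-empty Y match the label of female tissue. Whether the su(Hw) gene itself differed could not be checked, because no annotation of the dm3 build was used. Windows therefore carry coordinates of dm3 and no gene names. The mitochondrial genome is listed at 0 reads in every library.

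Reads were summed to 1 kb windows and scaled to each library's total over the arms. Ratios are given as preimmune over input with a 95% exact interval, which covers counting error only. No ratio has a replicate check and none was tested. Neighbouring 100 bp windows scattered more than Poisson counts, by a factor of 4.18 in the mutant's preimmune library and 2.77 in its input, and an interval may therefore understate the error of its window.

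Across the arms most windows lay close to an even ratio. Of 120378 windows, 113923 held at least 20 reads in the 2 su(Hw)f libraries together. Among these, 65.5% lay within 1.5-fold of 1. The median ratio was 1.10, and the 5th and 95th percentiles were 0.542 and 2.12. At a threshold of 2-fold, 7772 windows (6.82%) were higher in preimmune and 3819 (3.35%) were lower. The whole interval lay past 2-fold in 1255 higher (1.10%) and 1258 lower windows (1.10%). The median window lay 0.14 above 0 on the log2 scale. When that shift was taken out, the share of calls that were higher went from 67.1% to 43.6%, so the balance of higher and lower depends on the scaling.

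In wild type, 9.75% of 113907 tested windows were higher in preimmune and 10% were lower, and the percentiles were wider, at 0.412 and 2.41. In 100 kb windows the SD of the log2 ratio was also wider in wild type, at 0.26 against 0.21 in su(Hw)f. The wild-type libraries are shallower, and the part of depth in the wider spread was not tested.

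The ratio of preimmune to input was higher on chromosome 4 than on the large arms. Its 1160 tested windows had a median ratio of 1.77, against 1.10 over the large arms. On it 424 windows (36.6%, 33.8% to 39.4%) were higher in preimmune and 4 were lower. It made up 1.02% of tested windows and 5.46% of the higher ones. Summed over the whole chromosome, su(Hw)f preimmune held 153068 reads and input 99873, a ratio of 1.58 (1.56 to 1.59). With the shift of the median window taken out the ratio was 1.43, and the chromosome stayed above the large arms.

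Among the 5 large arms, X had the highest share of lower windows. Between 5.41% of windows (3R) and 7.83% (2L) were higher. The X chromosome had 5.54% lower windows (5.24% to 5.86%), against 2.64% on 2L, 3.29% on 2R, 2.80% on 3L and 2.88% on 3R. X held 18.4% of tested windows and 30.4% of the lower ones. In wild type the lower share was 12.8% on X and 12.2% on 2R, and their intervals overlapped. Whether the genotypes differ in this was not tested, and with 1 library each, library, strain and mutation cannot be told apart. Relative to the large autosomal arms, X held 1.01 times the reads per kb in mutant input and 0.944 times in mutant preimmune. The wild-type levels were 0.982 and 0.949.

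**Figure D1:**
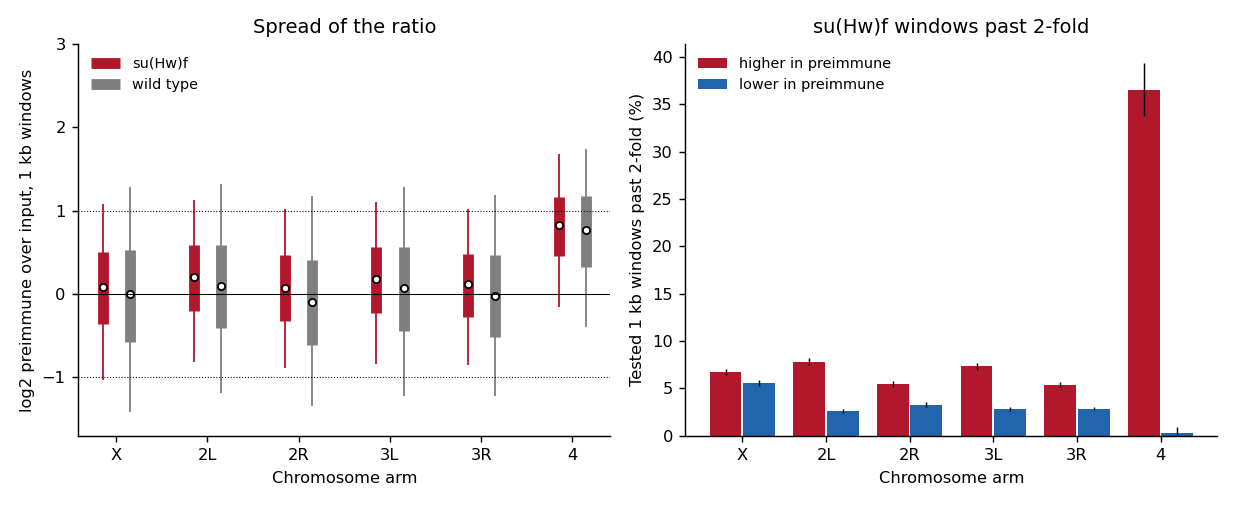
Left, log2 preimmune over input in 1 kb windows by arm, with su(Hw)f in red and wild type in grey; points are medians, thick bars run from the 25th to the 75th percentile and thin lines from the 5th to the 95th. Right, percent of tested su(Hw)f windows past 2-fold on each arm with 95% exact binomial intervals, where chromosome 4 reaches 36.6% higher and X has the tallest bar of lower windows, 5.54%.

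Along chromosome 4 the ratio followed a shallow bowl. In 100 kb bins from the centromere side the su(Hw)f ratio was 1.78, 1.71, 1.79 and 1.70 over the first 400000 bases. It then lay between 1.38 and 1.51 over the next 5 bins, up to 900000. From there it climbed through 1.57, 1.69 and 1.77 to 1.83 (1.76 to 1.90) in the last bin, 1200001 to 1300000. The lowest bin, 500001 to 600000, had a ratio of 1.38 (1.34 to 1.41), and its interval did not reach that of any bin outside the middle. Wild type gave a like bowl, with 1.80 in the first bin, 1.36 in its lowest, 700001 to 800000, and 1.97 in the last. In the middle bins input was fuller, with 10784 su(Hw)f input reads at 500001 to 600000 against 7205 at 1100001 to 1200000. Preimmune also differed between these bins, by less, with 14462 reads against 12380.

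Taken over 1.5 Mb, the centromere-side ends of 2L, 2R and 3L were enriched, and that of 3R was not. Over the last 1.5 Mb next to the centromere the ratio was 1.27 (1.26 to 1.28) on 2L, 1.32 (1.30 to 1.33) on 2R and 1.27 (1.26 to 1.28) on 3L. It was 1.06 (1.05 to 1.07) on X and 0.992 (0.986 to 0.997) on 3R. In these stretches 19.1% of windows on 2L, 20.8% on 2R and 21.0% on 3L were higher in preimmune. On X the share was 12.3%, and on 3R it was 8.05%, the latter near the 6.82% of all windows. The innermost and next 250 kb bins had 20.95% and 14.35% higher windows on X, with ratios of 1.164 and 1.175. On 3R these bins had 13.06% and 13.01%, with ratios of 1.009 and 1.074. In 250 kb bins the ratio dropped on 2R and 3L between the sixth and the seventh bin. It went from 1.38 to 1.12 on 2R and from 1.39 to 1.10 on 3L. On 3L it had already stood at 1.12 in the fifth bin, so the fall there was not a single step. With the shift of the median window taken out, the stretches on 2L, 2R and 3L stood at 1.15, 1.19 and 1.15, while X turned to 0.962 and 3R fell to 0.900.

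All 5 telomere-side tips were enriched over a short distance. In the last 100 kb the ratio was 1.44 on X, 1.30 on 2L, 1.60 on 2R, 1.42 on 3L and 1.35 on 3R, with intervals from 1.27 to 1.64 over the 5 tips. Of the 75 to 99 tested windows per tip, 12 to 30 were higher (13.3% to 30.3%), against 6.82% of all windows. None was lower, against 3.35% of all windows. Between 0.1 and 1 Mb from the tip the ratios were back between 0.892 (2R) and 1.02 (X). Wild type gave 1.23 to 1.57 over the same tips. With the shift of the median window taken out, the su(Hw)f tips lay between 1.18 and 1.45.

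The heterochromatic scaffolds XHet, 2LHet, 2RHet, 3LHet and 3RHet, which are assembled but not joined to the arms, also had ratios above 1. Their su(Hw)f ratios ran from 1.21 (1.18 to 1.24) on XHet to 1.34 (1.32 to 1.35) on 2RHet. The unplaced scaffolds U and Uextra stood at 1.27 and 1.25. YHet, with 31 preimmune and 33 input reads, had a ratio of 0.965 (0.572 to 1.63). The ratios of XHet, 2LHet, 2RHet, 3LHet, 3RHet, U and Uextra lay under the 1.58 of chromosome 4. Between 45.7% and 68.7% of the 100 bp windows of XHet, 2LHet, 2RHet, 3LHet and 3RHet were empty in all 4 libraries, as were 88.1% on U, 98.1% on Uextra and 98.9% on YHet, so these ratios describe only the part where reads were placed.

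**Figure D2:**
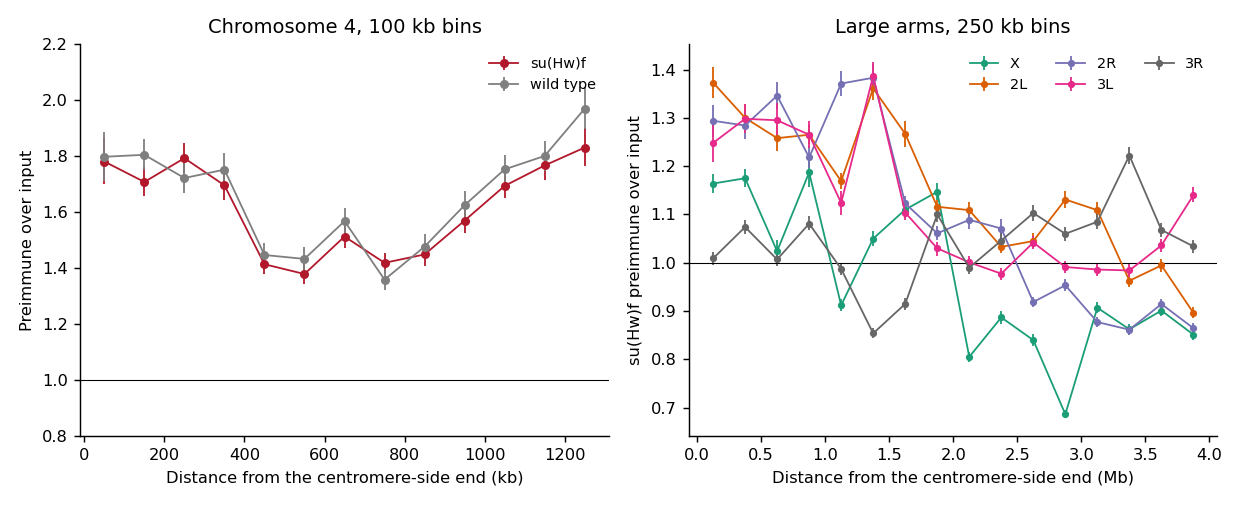
Preimmune over input against distance from the centromere-side end, with 95% counting intervals. Left, chromosome 4 in 100 kb bins in su(Hw)f (red) and wild type (grey), where both dip in the middle bins; right, the 5 large arms of su(Hw)f in 250 kb bins, where 2L, 2R and 3L lie above 1.1 over the first 1.5 Mb and 3R lies between 0.854 and 1.08.

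Windows with a high ratio were windows with little input, and windows with a low ratio were windows with much input. In the 7772 higher windows the median su(Hw)f input count was 66, or 0.413 times the median of all tested windows. The median preimmune count there was 152, or 0.879 times. In the 3819 lower windows input stood at 388 reads, or 2.43 times the median, and preimmune at 160, or 0.925 times. Preimmune thus stood close to its own median in both classes while input spanned a wide range. These windows were chosen by the ratio of the same counts, so the values describe the choice.

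The wild-type libraries, which had no part in that choice, differed between these windows in both input and preimmune. In the higher windows wild-type input stood at 0.612 times its median and wild-type preimmune at 1.20 times. In the lower windows they stood at 1.68 and 0.697 times. A 100 bp stretch empty in all 4 libraries occurred in 11.9% of the higher windows, 5.11% of the lower and 4.71% of all tested. Its part in the calls was not tested. Without such windows 6845 higher and 3624 lower windows were called, or 6.305% and 3.338% of 108557.

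Over all tested windows, su(Hw)f input had the widest range of the 4 libraries. Its 5th and 95th percentiles were 55 and 363 reads, or 0.344 and 2.27 times its median. In su(Hw)f preimmune they were 85 and 260 reads, or 0.491 and 1.5 times. Wild-type input ran from 0.474 to 1.74 times its median and wild-type preimmune from 0.505 to 1.75 times.

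To order windows by a measure outside the ratio, they were put into 10 classes by their wild-type input reads. From the first class to the last, the median su(Hw)f preimmune count went from 97 to 218 reads, a factor of 2.25. The median su(Hw)f input count went from 59 to 354, a factor of 6. The median ratio went from 1.67 in the first class to 0.634 in the last, with each class below the one before. In the first class 31.4% of windows were higher and 1.05% lower. In the last class 0.0440% were higher and 20.7% lower.

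**Figure D3:**
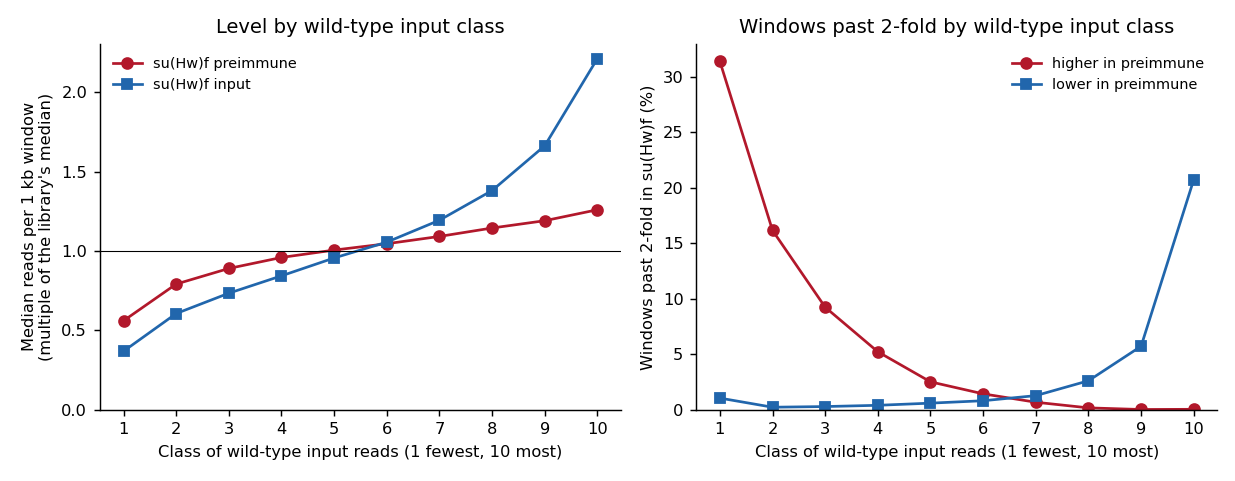
Windows in 10 classes of wild-type input reads, from fewest to most. Left, median su(Hw)f preimmune (red) and input (blue) per 1 kb window as multiples of the library median, with input climbing from 0.369 to 2.21 and preimmune from 0.561 to 1.26; right, percent of windows past 2-fold in su(Hw)f, where higher windows lie in the low classes and lower windows in the high ones.

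Chromosome 4 windows lay mostly in the low classes, and stood above those of the large arms in each of the 9 classes compared. The last class held only 16 windows of chromosome 4 and was left out. Of its windows, 562 fell in the first class, with a median ratio of 2.03 against 1.65 for the 11109 windows of the large arms in that class. In the second class the medians were 1.85 and 1.47, over 185 and 11011 windows. In the fifth they were 1.48 and 1.17, over 49 and 11307. In the 9 classes with at least 20 windows of chromosome 4, its median log2 ratio was 0.22 to 0.48 above that of the large arms. In the first class chromosome 4 held a median of 43 su(Hw)f input reads and the large arms 61, while preimmune stood at 86 and 98. From the third class on, the median preimmune count was higher on chromosome 4 and the input count lower, for example 159 against 154 and 94.5 against 118 in the third.

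Most runs of windows past 2-fold were 1 window long. Of 6621 runs of adjacent higher windows, 86.6% were single windows, and of 3195 lower runs 85.4% were. Calls were sparse, at 6.82% and 3.35% of windows, and the share of single runs under random placement was not computed. The log2 ratios of windows 1 kb apart correlated at r = 0.275 to 0.345 on the large arms and at 0.205 on chromosome 4. At 10 kb r was 0.0759 to 0.132 on the large arms, and at 100 kb it was at most 0.048. These windows share libraries and are not independent. Next to a higher window the median ratio dropped from 2.28 to 1.35 at 1 kb and 1.25 at 2 kb, and stayed at 1.22 at 10 kb. Next to a lower window it went from 0.441 to 0.757 at 1 kb and 0.993 at 10 kb. At 50 kb these medians were 1.18 and 1.05, against 1.10 over all tested windows. The starting values describe the choice of windows past 2-fold. Around the same windows wild type took a like course over the first 2 kb. Its median went from 1.96 to 1.31 and 1.19 on the higher side and from 0.424 to 0.666 and 0.791 on the lower. At 10 kb it was 1.14 and 0.886. At 50 kb it was 1.11 and 0.957, against 1.01 over all tested wild-type windows.

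The spread shrank as windows grew, and more slowly than counting error. The SD of the log2 ratio was 0.74 in 0.5 kb windows, 0.60 in 1 kb, 0.33 in 10 kb and 0.21 in 100 kb windows. Counting error alone amounts to 0.25, 0.17, 0.06 and 0.02 at these sizes. In 10 kb windows 33 of 11891 were past 2-fold higher and 13 lower. In 100 kb windows none of 1202 was, and the 5th and 95th percentiles were 0.818 and 1.30.

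The longest higher run was 4 148001 to 158000, with 1227 mutant preimmune reads and 504 input reads. Its ratio was 2.50 (2.25 to 2.78), and 2.21 (2.01 to 2.43) in wild type. The next were 4 1142001 to 1149000 at 2.31, 4 269001 to 276000 at 2.65, 4 637001 to 643000 at 2.44 and X 16260001 to 16266000 at 2.38. In these 5 runs su(Hw)f input stood at 0.289 to 0.366 times its median and preimmune at 0.690 to 0.760 times. Wild type gave ratios of 1.73 to 2.28 there. Of the 50 higher runs of 4 kb or longer, 27 lay on chromosome 4.

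The longest lower run was X 11007001 to 11016000, with 1512 su(Hw)f preimmune and 4139 input reads and a ratio of 0.375 (0.354 to 0.398). Next came 2L 5317001 to 5324000 at 0.379, X 6140001 to 6146000 at 0.430, X 20276001 to 20282000 at 0.364 and X 19753001 to 19759000 at 0.395. These 5 runs stood at 2.86 to 3.0 times the median in su(Hw)f input and at 0.965 to 1.16 times in preimmune. In wild type, input was at 1.81 to 1.94 times and preimmune at 0.608 to 0.677 times, with ratios of 0.323 to 0.346. Of the 31 lower runs of 4 kb or longer, 21 lay on X and none on chromosome 4.

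Single windows were ranked by the bound of the interval nearest to 1, which favours windows with many reads. The tenth window on the higher side had a lower bound of 3.59 and the next one 3.50. On the lower side the tenth had an upper bound of 0.2941 and the next 0.2954.

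The first window on the higher side was X 2690001 to 2691000, where the mutant had 377 preimmune reads and 1 input read (ratio 387, 69.1 to 15343). All 377 lay in 800 bases, 2690001 to 2690800, with 4 to 74 reads in each 100 bp window. The 400 bases before and the 900 bases after held 0 preimmune reads and at most 1 input read. From 2692001 to 2695000 the su(Hw)f libraries held 0 preimmune and at most 2 input reads per window, where wild type held 80 to 137 and 47 to 105. Mutant input was thus nearly empty at the window and beyond it, and the ratio does not compare a pair of measured levels. Wild-type preimmune was raised over the same 800 bases, with 439 reads against 90 in input (5.64, 4.49 to 7.16), and stood at 0.867 in the next 900.

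Another block with sharp edges lay at lower coordinates. X 2684201 to 2687200 had 2438 preimmune reads against 891 of input in the mutant (2.81, 2.60 to 3.04), and 1825 against 424 in wild type (4.98, 4.48 to 5.54). In this block every 100 bp window of both preimmune libraries held at least 1.5 times its library's median. The named window X 2684001 to 2685000, mostly inside this block, held 722 preimmune and 153 input reads (4.85, 4.07 to 5.81). Input was at 0.956 times its median in that window, while preimmune was at 4.17 times. The level of input was not even along the block. At X 2686001 to 2687000 the mutant had 479 input reads beside 803 of preimmune, and its ratio of 1.72 (1.54 to 1.93) did not reach 2-fold. The wild-type ratio there was 3.26 (2.73 to 3.91).

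The other 8 windows on the higher side lay on 2L, 2R, 3L, 3R and X, some of them beside other windows past 2-fold. The neighbours of 2L 21664001 to 21665000, for example, had ratios of 2.77 and 2.99, and those of X 177001 to 178000 had 2.65 and 2.34. The deepest of them, 3R 12086001 to 12087000, held 309 preimmune and 63 input reads, a ratio of 5.04 (3.83 to 6.72). The wild-type ratio was 3.10 (2.24 to 4.33). 2L 21891001 to 21892000 held 246 and 49 reads, at 5.16 (3.78 to 7.16), against 2.25 (1.70 to 3.01) in wild type. 2R 837001 to 838000 held 201 and 41, at 5.04 (3.59 to 7.23), against 4.31 (3.15 to 5.99). These 3 windows had preimmune above its median, at 1.16 to 1.79 times, and input at 0.256 to 0.394 times.

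X 159001 to 160000 (124 and 21 reads), X 177001 to 178000 (93 and 15) and 2L 21664001 to 21665000 (75 and 10) had ratios of 6.07, 6.37 and 7.71. In them both libraries lay under their medians. The wild-type ratios were 3.24, 2.11 and 2.59. The intervals of X 177001 to 178000 were 3.67 to 11.8 in su(Hw)f and 1.32 to 3.45 in wild type. These intervals cover counting error only. The windows were picked as extreme in su(Hw)f, and the difference between genotypes was not tested. X 22022001 to 22023000 (25 and 1) and 3L 19856001 to 19857000 (40 and 4) rested on so few input reads that their intervals ran from 4.21 to 1055 and from 3.72 to 39.5. In these last windows 6 and 9 of the 10 windows of 100 bp were empty in all 4 libraries. Wild type had 26 and 5 reads in the former, a ratio of 6.01 (2.27 to 20.1), and 8 and 5 in the latter, too few for a call.

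On the lower side the first window was 3L 13423001 to 13424000, with 117 preimmune and 706 input reads (0.170, 0.139 to 0.207). Input there stood at 4.41 times its median and preimmune at 0.676 times. Input exceeded 2 times its median in every 100 bp window from 13422801 to 13424000, and the fullest held 121 reads. The fullest preimmune window there held 29. Wild type had the same shape, with 52 and 315 reads (0.191, 0.140 to 0.257). X 5732001 to 5733000 was the next, with 163 and 858 reads (0.195, 0.164 to 0.231) in su(Hw)f and 0.174 in wild type. Its input, at 5.36 times the median, was the highest among the 10 lower windows.

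Of the other 8, 6 held 403 to 597 input reads and 75 to 135 preimmune reads, with ratios of 0.191 to 0.240. Their wild-type ratios lay between 0.166 and 0.285. They were 2R 185001 to 186000, 2R 5929001 to 5930000, X 21204001 to 21205000, 2L 240001 to 241000, 3R 5628001 to 5629000 and 2R 17108001 to 17109000. The remaining windows had wild-type ratios nearer to 1. They too were picked as extreme in su(Hw)f, and the difference between genotypes was not tested. 3L 9664001 to 9665000 held 100 and 480 reads in su(Hw)f (0.214, 0.171 to 0.266) and 127 and 197 in wild type (0.745, 0.592 to 0.936). The su(Hw)f ratio was 0.287 times the wild-type one (0.211 to 0.392). 2L 1770001 to 1771000 held 2 and 29 reads in su(Hw)f (0.0709, 0.00820 to 0.280) and 15 and 18 in wild type (0.963, 0.452 to 2.02).

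**Figure D4:**
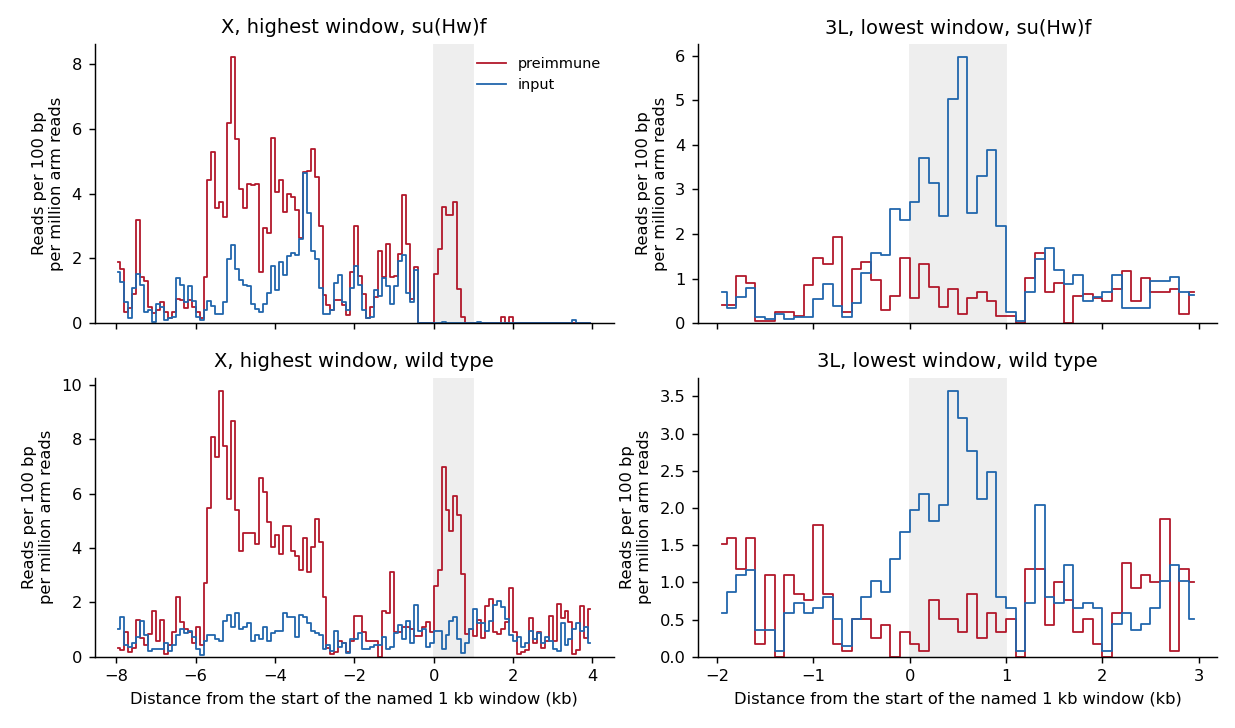
Reads per 100 bp, scaled to the reads of each library on the arms, for preimmune (red) and input (blue), against distance from the start of the named window, which is shaded. On X (left) preimmune rises in both genotypes in 2 blocks with sharp edges, and su(Hw)f input is near 0 from 0.4 kb before the window onward; on 3L (right) input peaks inside the window in both genotypes and preimmune does not.

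Few windows were occupied in a single library of the pair. In su(Hw)f, 19 windows held at least 5 preimmune reads and no input read, and 23 held at least 5 input reads and no preimmune read. The fullest of the first kind was 3L 23409001 to 23410000 with 19 preimmune reads, and of the second 3R 25749001 to 25750000 with 15 input reads. None reached the 20 reads required for a call. In both su(Hw)f libraries 5563 windows were empty.

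Wild type, measured in separate libraries, ranked the windows in a like order. In 113593 windows tested in both genotypes the log2 ratios correlated at r = 0.70, and at 0.93 in 1202 windows of 100 kb. Windows are not replicates, and the genotypes share no library. In the 1155 windows above a log2 ratio of 1.5 in su(Hw)f, the wild-type median ratio was 2.40, with quartiles of 1.80 and 3.15. In the 417 windows at or below -1.5, it was 0.357 (0.277 to 0.457). Wild type called 68.2% of the former higher and 81.8% of the latter lower, where 9.67% and 10% of all shared windows were so called.

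Taking all calls, wild type also called 3721 of 7692 higher windows (48.4%) and 2554 of 3789 lower windows (67.4%). These are 33.9% and 22.4% of the wild-type lists. Of the su(Hw)f higher windows 95% lay above a ratio of 1 in wild type, against 51.0% of all shared windows. Of the lower windows 97.3% lay below 1, against 49.0%. On X 72.5% of the lower windows were called in wild type, where 12.8% of all shared X windows were so called. On 3L these shares were 63.1% and 8.65%.

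**Figure D5:**
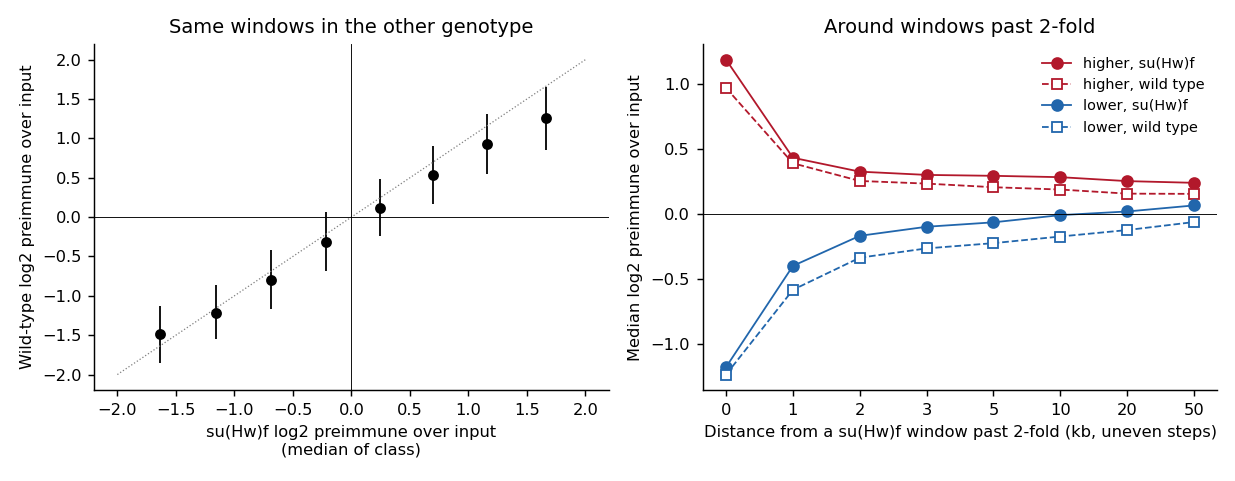
Left, windows grouped by their su(Hw)f log2 ratio, with the wild-type median and quartiles of the same windows; the dotted line marks equal values. Right, median log2 ratio at increasing distance from su(Hw)f windows past 2-fold, higher (red) and lower (blue), in su(Hw)f (filled) and wild type (open), with most of the change between 0 and 2 kb.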

How the data were processed

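Chromatin immunoprecipitation sequencing libraries were made from su(Hw)f and wild-type ovaries, with 1 library per group. The deposited files hold read counts per 100 bp window, not scaled, as wiggle tracks per the file headers. Per the submitters' processing notes, the build was dm3 and Partek 6.5 was used. How reads were aligned, and how duplicates and multiple matches were treated, is not given in the sources used here. PCR ran for 15 cycles per the labels' protocols, and PCR duplicates would widen scatter.

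Windows were summed to 1 kb on 6 arms (Python 3.11.15, numpy 2.4.6, pandas 2.3.3, scipy 1.17.1). Libraries were scaled to reads on these arms. Windows with at least 20 counts in a pair (called tested in the text) were called at 2-fold, with no significance test. Intervals are 95% exact conditional (Clopper-Pearson), and log2 ratios add 0.5 to each count. Calling and intervals were tested on simulated Poisson counts only. The libraries scattered more than Poisson counts, so that test cannot show how well the intervals cover the error here.

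Named windows were the 10 highest by lower bound and the 10 lowest by upper bound, with the 5 longest runs each way. The windows, rules and lists were chosen with earlier results of these data known, and the rules outlining the blocks on X and the peak on 3L were set after their counts were seen. The immunoprecipitation libraries were not analysed here. Alternatives covered scaling, count minimum, window size, fold, and the removal of chromosome ends.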

Additional observations from a re-analysis of the deposited data

Results flagged for a closer look

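In 19 of the 113593 windows tested in both genotypes, preimmune over input was past 2-fold in opposite directions in su(Hw)f and wild type. In 15 of these both counting intervals excluded 1. Past 2-fold in the same direction in both genotypes were 3721 higher and 2554 lower windows. The difference between genotypes was not tested, and 1 library a side gives no replicate check. Of the 15, 6 held fewer than 60 reads in su(Hw)f. Wild-type counts were also low in several, down to 4 preimmune and 18 input reads at 3L 21480001 to 21481000.

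On the higher side in su(Hw)f, 3L 15526001 to 15527000 had a ratio of 2.87 (265 preimmune and 95 input reads) against 0.474 in wild type. 3L 18361001 to 18362000 had 2.27 against 0.416, and X 12806001 to 12807000 had 2.26 against 0.434. The wild-type ratio of the latter rested on 9 preimmune and 24 input reads (0.177 to 0.966). 2L 13147001 to 13148000 had 2.22 against 0.479. The others were 2R 2316001 to 2317000 (2.76), 2R 922001 to 923000 (2.60), 2L 64001 to 65000 (2.26), 3L 5413001 to 5414000 (2.18), 3L 21480001 to 21481000 (2.15), X 408001 to 409000 (2.15), 3R 3467001 to 3468000 (2.02) and 3R 5525001 to 5526000 (2.0).

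On the lower side, 2R 13246001 to 13247000 had 0.434 (79 and 187 reads) against 2.29 in wild type. 3L 23767001 to 23768000 had 0.480 and 3L 23845001 to 23846000 had 0.234.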

How the results depend on the processing

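No paired analysis was possible because each group has 1 sample and the columns carry no replicate numbers. Calls in su(Hw)f stayed within 1.5 times of 7772 higher and 3819 lower with scaling to all reads, other count minimums, without chromosome 4 and the centromere-side ends, and without windows holding an empty 100 bp (an alternative added after seeing the data). They became 4804 higher (4.217%) and 6214 lower (5.455%) when scaled by the median window. In 500 bp windows they were 28472 and 13590 (12.65% and 6.037% of 225125). In 5 kb windows they were 201 and 79 (0.856% and 0.336% of 23485). Requiring the whole interval past 2-fold gave 1255 and 1258 (1.10% each). A fold of 1.5 gave 25405 and 13899 (22.3% and 12.2%), and a fold of 3 gave 924 and 287 (0.811% and 0.252%). At 5 kb both the number tested and the share called were lower than at 1 kb (6.82% and 3.35%). Chromosome 4 stood at 1.43 with median scaling and 1.77 as a median of windows. The large arms turned direction on 2L (0.951) and 3L (0.933) with median scaling, and on X (1.06) and 2R (1.05) as medians of windows. The SD of log2 ratios was 0.396 in 5 kb windows. The share of higher calls shared with wild type became 53.2% with median scaling, and that of lower calls 62.9% with median scaling and 74.4% in 5 kb windows. Beyond construction, the cause of these moves was not tested. At this depth, windows near the minimum of 20 reads have wide intervals.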
